A study of Mus musculus with 8 samples.

Results

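Cd36, Lpl, Fabp3, Fabp5, Fabp7, Acsl6, Cpt1a and Ppara are 8 genes that bring long-chain fatty acids into cells, carry them inside, activate them, pass them to mitochondria or regulate these steps. They are 8 of the 19505 distinct genes named on the arrays. Cd36 was selected on its measured values, because it was far higher after clothianidin at 3 weeks, and the other 7 were chosen by their function, to see whether they followed it. Each of the 8 has 1 transcript cluster, the array's unit of measurement, which sums the probes of a transcript. RNA came from the hippocampus of male mice. From postnatal day 1 to day 4 their dams were dosed orally with vehicle or with clothianidin (CLO), an insecticide of the neonicotinoid class, which targets nicotinic receptors. The dose was 65 mg/kg/day, which the labels call a level without observed adverse effect, and it was given to the dams and not to the pups themselves. The 4 groups were vehicle at 3 weeks, clothianidin at 3 weeks, vehicle at 10 weeks and clothianidin at 10 weeks, with 2 arrays each. The labels name no strain, litter or genotype and do not say that the 2 arrays of a group come from separate animals, so each p-value reflects the spread among these arrays only, and that spread may be technical.

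CD36 is a membrane glycoprotein that binds long-chain fatty acids and oxidised lipoproteins, and is known from endothelium, microglia and macrophages, platelets, muscle and fat. Lipoprotein lipase frees fatty acids from lipoprotein triglycerides, and the fatty acid binding proteins FABP3, FABP5 and FABP7 carry them through the cytosol, with FABP7 best known in radial glia and astrocytes, and FABP3 and FABP5 in neurons among other cells. ACSL6 joins them to coenzyme A, with a preference for polyunsaturated chains, and CPT1A makes the carnitine esters that enter mitochondria for beta-oxidation. PPAR alpha is a nuclear receptor for fatty acids that, paired with RXR, binds repeats of AGGTCA-like letters, and Cd36, Cpt1a and Lpl are among the textbook targets of the PPAR family.

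Promoter windows are shown for Cd36, Fabp7 and Cpt1a, 3 of the 4 genes whose clothianidin arrays both lay above both vehicle arrays at 3 weeks. Each holds the 250 bases before an annotated start, from RefSeq on GRCm38.p6, 5′ to 3′ on the gene's strand. The windows are chr5:17835897-17836146 on the minus strand for Cd36, chr10:57784673-57784922 on the plus strand for Fabp7 and chr19:3323051-3323300 on the plus strand for Cpt1a. In RefSeq the Cd36 gene spans 17781690 to 17888959 and the Cpt1a gene 3322326 to 3385735. Their windows thus lie inside the genes, before a start other than the outermost. The Fabp7 window ends where its gene begins. Capitals mark the letters AGGTCA (the core of a nuclear receptor site) and CCAAT, searched on both strands. A match of the former on the opposite strand appears as TGACCT, and one of the latter in reversed complement. The TATA box letters TATAAA were also searched, and none of the 3 windows held them.
Cd36: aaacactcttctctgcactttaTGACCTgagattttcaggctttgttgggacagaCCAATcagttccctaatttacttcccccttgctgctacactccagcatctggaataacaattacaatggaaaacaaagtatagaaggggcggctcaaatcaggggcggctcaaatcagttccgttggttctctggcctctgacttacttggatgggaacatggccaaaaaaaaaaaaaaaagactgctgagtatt
Fabp7: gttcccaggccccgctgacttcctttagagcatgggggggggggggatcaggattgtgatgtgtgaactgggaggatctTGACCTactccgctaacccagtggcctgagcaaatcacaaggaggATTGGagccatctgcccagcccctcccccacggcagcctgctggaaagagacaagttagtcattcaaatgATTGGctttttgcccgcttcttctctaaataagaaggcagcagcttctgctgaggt
Cpt1a: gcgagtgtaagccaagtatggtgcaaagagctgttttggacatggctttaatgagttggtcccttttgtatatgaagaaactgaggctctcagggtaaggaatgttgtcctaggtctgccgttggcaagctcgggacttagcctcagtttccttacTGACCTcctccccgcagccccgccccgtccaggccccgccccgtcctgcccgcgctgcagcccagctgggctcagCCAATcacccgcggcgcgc
The Cd36 window held AGGTCA 228 bases and CCAAT 195 bases before the start, and 43.2% of its bases were G or C. The Fabp7 window held AGGTCA at 171 bases and CCAAT at 126 and 56 bases, and the Cpt1a window held AGGTCA at 94 bases and CCAAT at 19 bases. Of 32851 windows of this length in the RefSeq table, 14.0% held AGGTCA, 33.8% held CCAAT and 12.4% held TATAAA, and their median G or C content was 52.4%. Of the other members, Acsl6 had 3 windows, the first with AGGTCA at 189 and 167 bases, and neither Fabp3 nor Ppara had any of the 3 motifs. Fabp5 and Lpl had no entry. A match is a description of letters and not a binding site.

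The log2 median of an array was 5.73 to 5.86 and its lower quartile 3.85 to 4.13, so values near or below 4 are close to the dim end of the arrays. Markers of hippocampal neurons had mean levels from 13.1 to 13.8 in the 8 arrays, and none of the 13 measured had a mean in the lower quartile. Values were least spread in the first vehicle array of the 3-week group (SD over clusters 3.15, the others 3.26 to 3.39). Transthyretin (Ttr), a product of the choroid plexus, read 18.3 to 19.2 in 3 arrays, namely the second vehicle and first clothianidin arrays at 3 weeks and the first clothianidin array at 10 weeks, and 5.24 to 7.37 in the other 5. At 3 weeks each exposure group therefore held 1 Ttr-high array, while at 10 weeks the only such array was in the clothianidin group. All 14 measured choroid plexus markers had higher means with clothianidin at 10 weeks, median difference 1.01, though the groups overlapped for each. Meninges and fibroblast markers had 11 of 13 lower at that age, 6 without overlap, beside 15.3% of all clusters. Their mean levels were 7.698 and 7.425 in the vehicle arrays and 7.162 and 6.734 in the clothianidin arrays. Hippocampal neuron markers had 12 of 13 higher, 5 without overlap, beside 15.4% of all clusters. Oligodendrocyte lineage markers had 9 of 10 higher, 4 without overlap. The part of any of these tissues or cells in the 10-week exposure differences was not tested.

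Cd36 was the member that differed most between exposures at 3 weeks. It read 3.37 and 4.11 in the vehicle arrays and 6.33 and 6.44 in the clothianidin arrays, log2 intensities that average 3.74 ± 0.52 and 6.39 ± 0.08 (SD, n = 2). The first vehicle array thus lay below its lower quartile of 4.13 and the second just above its own of 3.94. Both clothianidin arrays lay above the median of all clusters. The log2 difference was 2.65 with a standard error of 0.42, or 6.26-fold as measured. The fold is uncertain, since the vehicle arrays read at the dim end, 1 of them below its lower quartile, where background can make up much of a signal. No test is given because this difference chose the gene. Its standard error, like those below, comes from a linear model of the 4 group means fitted to all 22206 clusters with limma, which pools the spread over the 8 arrays. Leaving out any 1 of the 4 arrays at 3 weeks left the difference between 2.28 and 3.02, and without the 3 Ttr-high arrays it was 3.07. As the tissue was measured in bulk, fewer cells of a type and less RNA per cell cannot be told apart in any result here.

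At 10 weeks the Cd36 values lay in the other order. The vehicle arrays read 5.40 and 4.06 and the clothianidin arrays 4.18 and 3.61, means of 4.73 ± 0.95 and 3.90 ± 0.40. The 2 groups overlapped. The clothianidin minus vehicle difference was -0.84 with a standard error of 0.42 (95% confidence interval from -1.77 to 0.10), which did not pass the test (limma, adjusted p = 0.997). Without the first vehicle array, the highest of the 4, it was -0.17. Ordered by their means, the groups ran from clothianidin at 3 weeks through vehicle at 10 weeks and clothianidin at 10 weeks to vehicle at 3 weeks. The top group did not overlap any other, and each of the other 3 overlapped its neighbour in this order. From 3 to 10 weeks Cd36 was higher by 0.99 in the vehicle means, and the clothianidin means differed by -2.49. The exposure difference at 10 weeks minus that at 3 weeks was -3.48 with a standard error of 0.60, again without a test.

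**Figure D1:**
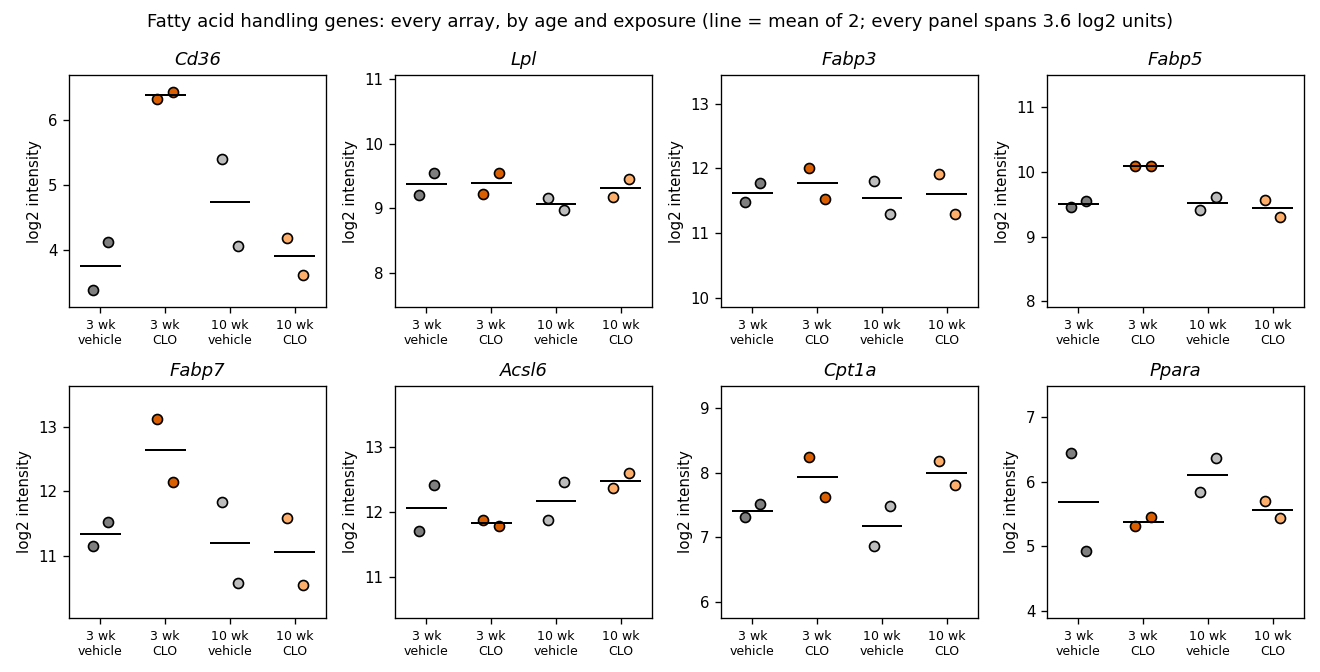
Log2 intensity of the 8 genes in each of the 8 arrays, with the 4 groups on the horizontal axis, 1 point per array and a line at the mean of 2; every panel spans the same number of log2 units. Cd36 stands alone at 6.33 and 6.44 in the clothianidin (CLO) arrays at 3 weeks, Fabp5 and Fabp7 are highest in the same arrays, and Lpl and Fabp3 overlap across exposures at that age.

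Lipoprotein lipase, which supplies fatty acids at the cell surface, showed almost no difference at 3 weeks. Lpl read 9.20 and 9.54 in the vehicle arrays and 9.22 and 9.55 in the clothianidin arrays, a log2 difference of 0.02 with a standard error of 0.28. The 2 pairs of values nearly coincided. At 10 weeks Lpl read 9.16 and 8.98 against 9.17 and 9.46, so that the clothianidin arrays lay just above the vehicle arrays. That difference of 0.25 (95% confidence interval from -0.37 to 0.86) did not pass the test (limma, adjusted p = 0.997).

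Among the binding proteins, Fabp7 and Fabp5 were higher with clothianidin at 3 weeks and Fabp3 was nearly level. Fabp7 read 11.15 and 11.53 in the vehicle arrays and 13.12 and 12.15 in the clothianidin arrays. The groups did not overlap, but the 2 clothianidin arrays lay farther apart from each other than the lower of them lay from the nearer vehicle array. The log2 difference was 1.30 with a standard error of 0.47, or 2.45-fold, and it ranged from 0.81 without the first clothianidin array to 1.78 without the second. That first array was Ttr-high; without all 3 Ttr-high arrays the difference was 1.00. Fabp5 read 9.46 and 9.55 against 10.10 and 10.09, tight pairs that did not overlap. Its difference was 0.59 with a standard error of 0.26, or 1.51-fold, and stayed between 0.55 and 0.64 when any 1 of the 4 arrays was left out. Fabp3 read 11.48 and 11.77 against 12.01 and 11.53. These overlapped, and the difference of 0.15 with a standard error of 0.32 was 0 when the first vehicle array was left out and -0.10 when the first of the clothianidin arrays was.

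At 10 weeks none of the 3 binding protein genes separated the exposures. Fabp7 read 11.83 and 10.58 in the vehicle arrays and 11.58 and 10.55 in the clothianidin arrays, a wide spread within both groups and a difference of -0.14 (95% confidence interval from -1.18 to 0.90). Fabp5 read 9.42 and 9.61 against 9.57 and 9.31, a difference of -0.08 (from -0.65 to 0.50). Fabp3 read 11.80 and 11.30 against 11.92 and 11.29, a difference of 0.06 (from -0.66 to 0.77). All 3 pairs of groups overlapped, and limma gave an adjusted p of 0.997 for each. The intervals for Fabp5 and Fabp3 still hold differences as large as the one Fabp5 showed at 3 weeks, in at least 1 direction. The exposure difference at 10 weeks minus that at 3 weeks was -1.44 (SE 0.67) for Fabp7, -0.67 (SE 0.37) for Fabp5 and -0.09 (SE 0.46) for Fabp3, values that contain the 3-week contrast and are not tested.

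Of the enzymes, Cpt1a read higher in the clothianidin arrays at both ages and Acsl6 did not. Cpt1a read 7.31 and 7.52 in the vehicle arrays at 3 weeks and 8.24 and 7.62 in the clothianidin arrays. The lower clothianidin array was only just above the higher vehicle array. The difference was 0.52 with a standard error of 0.32, or 1.43-fold, and 0.21 once the first clothianidin array was left out. In the 10-week groups it read 6.86 and 7.49 against 8.18 and 7.81, again without overlap. The difference of 0.82 with a standard error of 0.32, or 1.77-fold (95% confidence interval from 0.11 to 1.53), had an unadjusted limma p of 0.0273 and did not pass the test over all clusters (adjusted p = 0.997). It ranged from 0.51 to 1.14 when 1 of the 4 arrays at that age was left out. All 4 clothianidin arrays of both ages lay above all 4 vehicle arrays for this gene, the rate-limiting step of mitochondrial fatty acid entry. The margin was narrow, 7.62 against 7.52, and the share of all clusters that separate in this way was not counted. Upward separation at a single age was found in 17.2% of clusters at 3 weeks and 15.4% at 10 weeks.

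Acsl6 read 11.71 and 12.41 in the vehicle arrays at 3 weeks and 11.87 and 11.78 in the clothianidin arrays, which lay between them. The difference of -0.24 with a standard error of 0.32 was 0.12 once the second vehicle array was left out. In the 10-week groups Acsl6 read 11.87 and 12.47 against 12.37 and 12.60, a difference of 0.32 (95% confidence interval from -0.39 to 1.02; limma, adjusted p = 0.997), and without the first vehicle array it was 0.02. The groups overlapped at both ages.

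Ppara, the receptor gene, was not higher in the clothianidin group at either age. At 3 weeks it read 6.45 and 4.93 in the vehicle arrays and 5.32 and 5.45 in the clothianidin arrays. The vehicle arrays enclosed the other pair and lay farther apart than the arrays of any other group of the 8 genes, so that the difference of -0.31 (SE 0.42) was 0.46 without the first vehicle array and -1.07 without the second. At 10 weeks it read 5.85 and 6.37 against 5.70 and 5.44, with both clothianidin arrays lower. That difference of -0.54 (95% confidence interval from -1.47 to 0.39) did not pass the test (limma, adjusted p = 0.997).

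**Figure D2:**
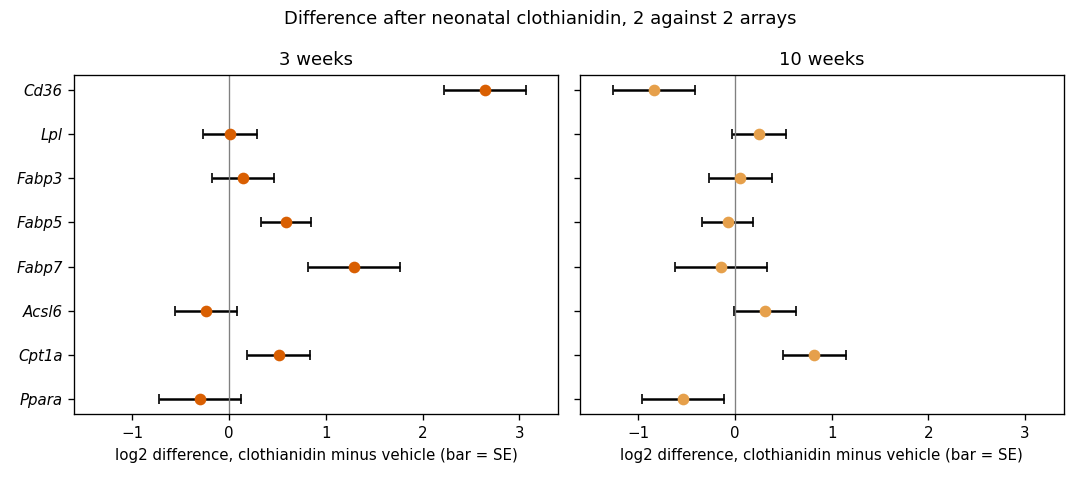
Log2 difference, clothianidin minus vehicle, for the 8 genes at 3 weeks (left) and 10 weeks (right); points are differences between means of 2 arrays and bars are the standard error of the limma model. At 3 weeks Cd36 is at 2.65, followed by Fabp7 at 1.30, and at 10 weeks Cpt1a is the highest at 0.82 and Cd36 the lowest at -0.84.

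Counted together, 6 of the 8 genes were higher and 2 lower in the clothianidin arrays at 3 weeks, with a median difference of 0.33. Of all clusters, 49.4% were higher, with a median difference of -0.01. Without Cd36 the count was 5 of 7 with a median of 0.15, and leaving out 1 of the 4 arrays gave 4 to 6 of 7, with medians from 0.18 to 0.41. In 4 genes (Cd36, Fabp5, Fabp7 and Cpt1a) the 2 groups did not overlap with clothianidin higher, and in 0 with clothianidin lower. With 2 against 2 arrays such separation was common, being found in 17.2% of the 22206 clusters with clothianidin higher and in 17.2% with it lower. In the limma fit 0% of all clusters passed an adjusted p of 0.05 at 3 weeks, although 1310 had an unadjusted p under that value. The members were picked with this contrast known, so these counts are a description.

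At 10 weeks 4 members were higher and 4 lower, with a median difference of -0.01, beside 50.7% of all clusters higher. The groups did not overlap in Lpl and Cpt1a, higher with clothianidin, and in Ppara, lower. Over all clusters 15.4% separated with clothianidin higher and 15.3% with it lower. Limma called 0% of the clusters at 10 weeks (820 had an unadjusted p under 0.05) and 0% for the difference between the exposure differences (695 unadjusted). The 2 ages thus share 1 member that separated in the same direction, Cpt1a. The share of all clusters that did so at both ages was not counted, so this is a description only.

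Between the ages, taken over both exposures, none of the 7 members other than Cd36 passed the test. For Fabp7 the log2 difference, 10 minus 3 weeks, was -0.85 (SE 0.34, limma adjusted p = 0.118). Split by exposure, Fabp7 differed by -0.14 in the vehicle arrays and by -1.57 in the clothianidin arrays. For Cd36 the age difference was -0.75 (SE 0.30). It is given without a test, since it includes the 3-week clothianidin arrays that chose the gene and the vehicle means alone differ the other way. The others were Fabp5 at -0.32, Lpl at -0.19, Fabp3 at -0.12, Cpt1a at -0.09, Ppara at 0.30 and Acsl6 at 0.39, with limma adjusted p from 0.270 to 0.835. In the same fit 11.2% of all clusters passed, 6.37% higher at 10 weeks and 4.84% lower.

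Wider fatty acid genes were set beside the members through 10 lists with 168 genes, of which 151 were measured. Apart from the 8 members, 75 of 143 were higher and 68 lower after clothianidin at 3 weeks, with a median difference of 0.03. Clothianidin arrays lay above vehicle arrays without overlap in 30 of them (21.0%, against 17.2% of all clusters) and below in 20 (14.0%, against 17.2%). Without the 3 Ttr-high arrays 87 of the 143 were higher, with a median of 0.15. At 10 weeks 77 were higher, 62 lower and 4 equal, with a median of 0.08, 28 separated upward (19.6%, against 15.4% of all clusters) and 16 downward (11.2%, against 15.3%). None of the 143 passed the limma test in either exposure contrast.

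The uptake and binding list was split at 3 weeks, with 10 of 23 genes higher and a median difference of -0.04, but 16 higher without the first vehicle array. Besides Cd36 and Fabp7 at one end, Fabp9, a testis-type binding protein gene that was below the lower quartile in all 8 arrays, stood at the other with -0.96 (SE 0.31). The PPAR target list, which includes Cd36 and Cpt1a, had 10 of 17 genes higher and a median of 0.03. Its lowest were Angptl4, an inhibitor of lipoprotein lipase, at -0.84 (SE 0.36) and Creb3l3, a liver-type transcription factor gene, at -0.77 (SE 0.27). Angptl4 read 6.25 and 5.20 in the vehicle arrays and 4.94 and 4.84 in the clothianidin arrays, so both clothianidin arrays were lower. The lipoprotein list had 8 of 14 higher and a median of 0.10 (6 of 14 and -0.02 without the first vehicle array), with endothelial lipase Lipg at 0.83 (SE 0.27) and the lipase chaperone gene Lmf1 at 0.59 (SE 0.33) at the upper end, and Gpihbp1, whose product anchors lipoprotein lipase on endothelium, at -0.50 (SE 0.43).

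Lipid droplet and lipolysis genes had the most one-sided count at 3 weeks, 15 of 18 higher with a median difference of 0.30. The groups did not overlap for 6 of the 18 with clothianidin higher and for 1 with it lower, beside 17.2% of all clusters in each direction. Dgat1, which makes triglyceride, differed by 0.98 (SE 0.42), Bscl2, which encodes the droplet assembly protein seipin, by 0.69 (SE 0.29), and Hilpda, an inhibitor of adipose triglyceride lipase, by -0.56 (SE 0.28). Dgat1 read 4.01 and 3.61 against 5.31 and 4.27, dim values that differed more within the clothianidin pair than within the vehicle pair. Bscl2 read 8.80 and 9.22 against 9.84 and 9.56. Leaving out 1 array at 3 weeks gave 13 or 14 of 18 higher and medians from 0.20 to 0.37, and without the 3 Ttr-high arrays it was 14 of 18. At 10 weeks 11 of the 18 were higher with a median of 0.09, and 9 without the second clothianidin array. The list was picked with results of these data known, and its count is a description.

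The remaining lists at 3 weeks had medians between -0.16 and 0.30. Acyl-CoA synthetases and thioesterases had 7 of 12 higher with a median of 0.30, which was 0.08 without the first vehicle array and 0.11 without the first of the clothianidin arrays. Here Acsl5, which serves triglyceride synthesis, differed by 0.57 (SE 0.31) and Acsbg1, a synthetase of glia and neurons, by -0.61 (SE 0.31). The carnitine shuttle and mitochondrial beta-oxidation had 9 of 21 higher and a median of -0.06: Cpt1a was the highest of the list, while the dehydrogenase gene Hadh was the lowest at -0.45 (SE 0.29). That count depended on single arrays, being 5 of 21 without the first vehicle array, 15 of 21 without the first clothianidin array and 16 of 21 without the 3 Ttr-high arrays. At 10 weeks the same list had 14 higher, 5 lower and 2 equal, with Cpt1a again the highest and a median of 0.12, but 7 higher without the first clothianidin array. Peroxisomal beta-oxidation had 5 of 12 higher at 3 weeks (8 of 12 without the first clothianidin array) and PPAR receptors and coactivators 5 of 11 (6 of 11 without that array). Synthesis and desaturation had 11 of 17 higher (7 of 17 without the first vehicle array), and scavenger receptors, among which Cd36 also counts, had 9 of 16.

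**Figure D3:**
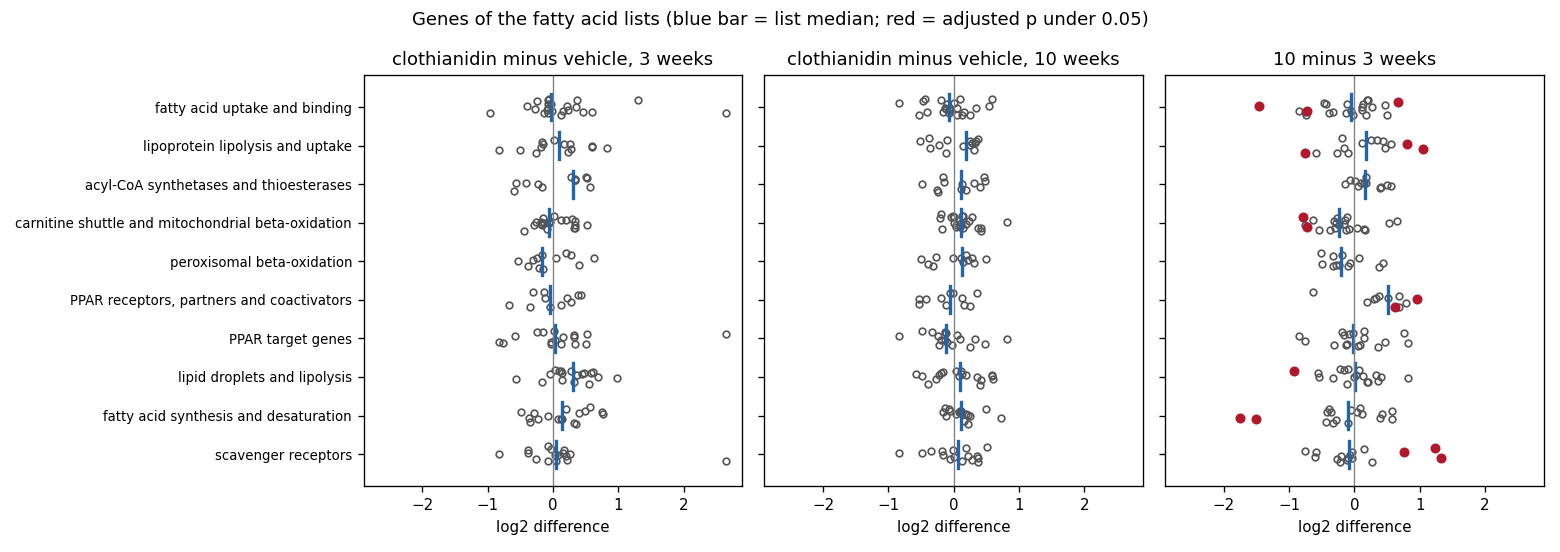
Log2 differences of the genes of 10 fatty acid lists in 3 comparisons: clothianidin minus vehicle at 3 weeks, the same at 10 weeks, and 10 minus 3 weeks; 1 circle per gene, blue bar at the list median, red where the limma adjusted p is under 0.05. No gene is red in either exposure comparison, Cd36 is the far right circle of its 3 lists at 3 weeks, and 16 genes are red between the ages.

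Other fatty acid genes passed the threshold between the ages: 8 of the 151 rose and 8 fell from 3 to 10 weeks, 10.6% against 11.2% of all clusters. The largest fall was that of Elovl1, an elongase for very long chains, which read 8.84 to 9.92 in the 4 arrays at 3 weeks and 7.71 to 7.93 at 10 weeks (difference -1.76, SE 0.23, limma adjusted p = 0.00351). Elovl7, a further elongase, fell by 1.51 (limma adjusted p = 0.0154), and Pmp2, the fatty acid binding protein of myelin, fell by 1.46 (limma adjusted p = 0.00722). At 10 weeks Pmp2 read 2.75 to 3.42, below the lower quartile in all 4 arrays, so the size of its fall is uncertain. The scavenger receptor genes Cxcl16 and Olr1 rose by 1.33 and 1.23 (limma adjusted p = 0.00716 and 0.0106), though Olr1 read 2.11 to 3.93, at the dim end of the arrays. Lrp8, a receptor for apolipoprotein E and reelin, rose by 1.05 (limma adjusted p = 0.0148), and Rxra, the DNA-binding partner of the PPARs, rose by 0.96 (limma adjusted p = 0.0154).

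The other genes that passed between the ages had smaller changes. Slc27a1 (a fatty acid transporter), Apoa5 (an apolipoprotein), Rxrb (a second partner of the PPARs) and Megf10 (an engulfment receptor) rose by 0.62 to 0.81. Mfsd2a (the transporter of docosahexaenoic acid at the blood-brain barrier), Lipg, Etfdh and Acadvl (both of mitochondrial fatty acid oxidation) and Cidec (a droplet protein) fell by 0.72 to 0.92. Cidec was dim, below the lower quartile in 3 arrays. Of the 16 genes, 13 passed after quantile normalisation, 12 with each array centred on its median and 9 with the replicate number as a block. Slc27a1, Rxrb and Megf10 passed in none of these fits. With any 1 array left out, all 16 kept their direction, and Elovl1, Pmp2, Cxcl16 and Olr1 passed in 8 of 8 such fits, Lrp8 in 6, Rxra and Elovl7 in 5, Cidec in 2, Mfsd2a and Lipg in 1 and the other 6 in 0. Without the 3 Ttr-high arrays 0 of the 16 passed, in a fit with 5 arrays that called 0 clusters in all. In the PPAR receptor and coactivator list 10 of 11 genes were higher at 10 weeks, beside 55.9% of all clusters, with a median of 0.52 against 0.07. All 10 measured oligodendrocyte lineage markers were lower at 10 weeks with a median of -1.33. Of these 6 passed, beside 4.84% of all clusters that passed as lower. Their mean level lay between 11.28 and 12.18 at 3 weeks and between 10.38 and 10.71 at 10 weeks, and their part in the lower Elovl1 and Pmp2 values was not tested.

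Markers of the cell types known for CD36 were set beside it at 3 weeks. The mean log2 level of 14 microglia markers was 7.40 and 7.83 in the vehicle arrays and 7.79 and 7.77 in the clothianidin arrays, with 6 higher, 8 lower and a median difference of -0.03. Single microglia markers differed by -0.48 to 1.10, and 5 of the 14 lay above vehicle without overlap and 2 below, where 17.2% of all clusters did so in each direction. For 12 endothelial markers it was 8.50 and 8.86 against 8.54 and 8.72, with 6 higher and 6 lower, 1 separated upward and 4 downward. The 10 markers of perivascular macrophages and monocytes had means of 5.14 and 4.54 against 4.99 and 4.74, with 6 higher, a median difference of 0.11, and 3 separated upward and 1 downward. Blood cell and platelet markers (6 measured, 2 higher) had means of 5.71 and 4.99 against 5.20 and 5.22. Adipocyte markers (9 measured, 7 of them with a mean in the lower quartile) had means of 4.07 and 4.08 against 4.15 and 3.96. In each of these 5 lists the mean levels of the vehicle and clothianidin arrays overlapped. The part of any of these cells in the Cd36 values was not tested. Astrocyte markers, the cells best known for FABP7, had means of 12.31 and 12.79 against 12.63 and 12.59, and the 10 neural progenitor markers 6.48 and 6.69 against 6.67 and 6.60, also overlapping.

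**Figure D4:**
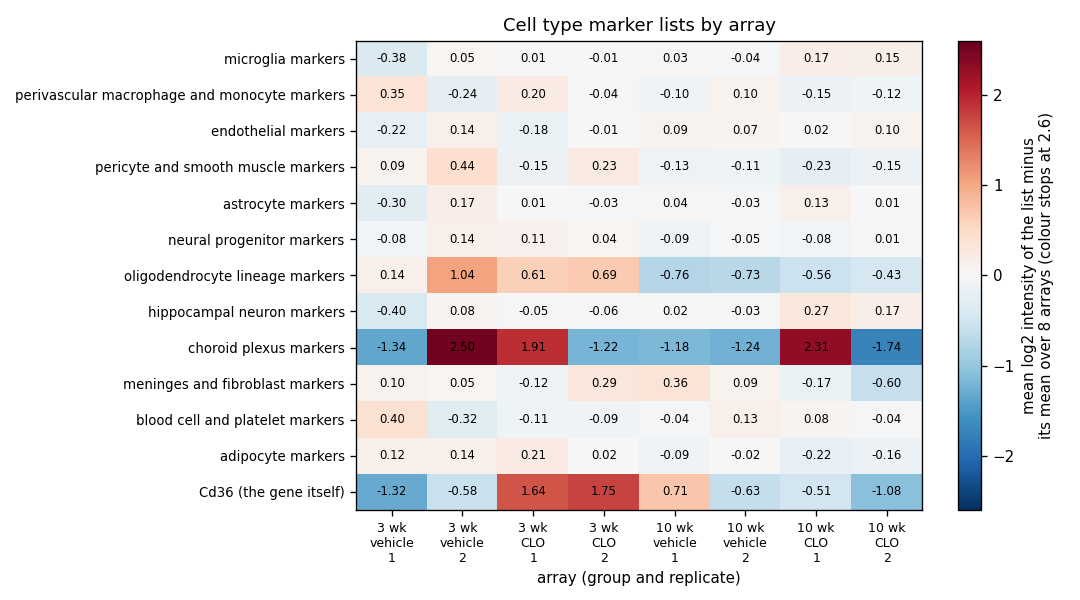
Mean log2 intensity of 12 marker lists in each array minus the list's mean over the 8 arrays, with Cd36 as the last row; columns are arrays by group and replicate, and colour and printed value give the deviation. Cd36 is high in both clothianidin arrays at 3 weeks, choroid plexus markers are high in the 3 Ttr-high arrays, and oligodendrocyte lineage markers are higher at 3 than at 10 weeks.

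The profile of Cd36 over the 8 arrays was compared with those of 17090 clusters by Pearson's r. These are the clusters with 1 symbol, leaving out Cd36 itself, small RNAs, predicted genes and the genes of olfactory or vomeronasal receptors. The points include both clothianidin arrays at 3 weeks, which stand far from the rest in Cd36, so the values describe these arrays, carry no p, and are also given without those 2. The 5 most alike were Mc2r (the receptor of adrenocorticotropic hormone) at 0.983, Pmm2 (a mannose phosphate mutase of glycosylation) at 0.958, Srm (spermidine synthase) at 0.945, Ly6e (a membrane-anchored Ly6 protein) at 0.935 and Ctdnep1 (a nuclear envelope phosphatase) at 0.927. Without the 2 arrays r was 0.933, 0.825, 0.781, 0.727 and 0.844. Mc2r ran only from 3.43 to 4.16, close to the lower quartile. The 3 least alike were Ankrd53 at -0.979, Ttc39b at -0.940 and Cenpj at -0.935, and without the 2 arrays -0.989, -0.838 and -0.835. Ankrd53 read 2.05 to 3.07, below the lower quartile in all 8 arrays. In all, 11 clusters had an r of 0.9 or more.

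None of the 7 other members was among those 11. As only 11 of the 17090 clusters reached that level, their absence says little about the members. Fabp7 came nearest with r = 0.847 and Fabp5 followed with 0.833. Without the 2 clothianidin arrays at 3 weeks Fabp7 kept 0.649 and Fabp5 had 0.055, so the likeness of Fabp5 rested on those 2 arrays. The other values over all 8 arrays were 0.478 for Fabp3, 0.169 for Lpl, 0.140 for Cpt1a, -0.373 for Ppara and -0.552 for Acsl6. Without the 2 arrays r was 0.564 for Fabp3, -0.240 for Lpl, -0.135 for Ppara and -0.212 for Acsl6. The share of all clusters that reached the values of the members was not counted. Cpt1a, higher with clothianidin at both ages, thus did not share the 10-week order of Cd36, and without the 2 arrays its r was -0.505.

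**Figure D5:**
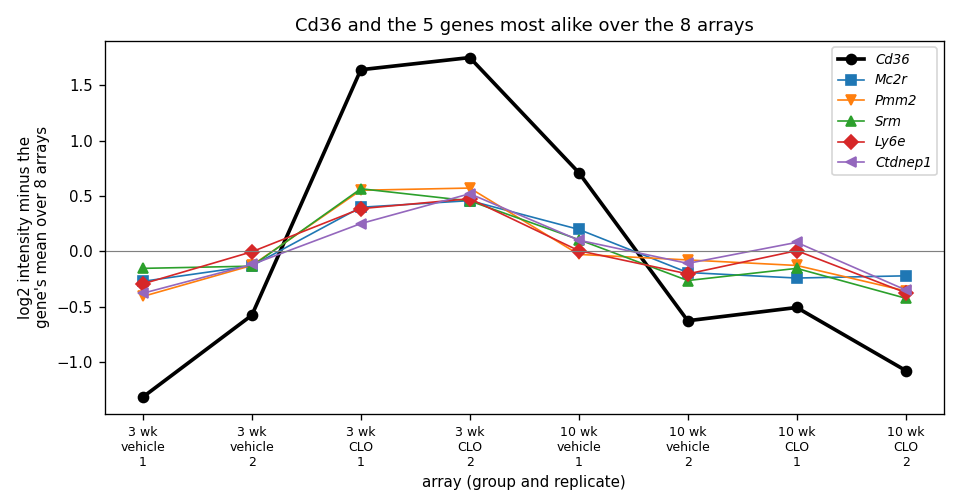
Log2 intensity minus the gene's mean over the 8 arrays for Cd36 (black) and the 5 most alike genes; columns are arrays by group and replicate, and lines only join the points of a gene. All 6 genes are highest in the 2 clothianidin arrays at 3 weeks, and Cd36 spans a wider range than the other 5.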

How the data were processed

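Whole-transcript arrays of hippocampal RNA (250 ng of total RNA per array, integrity number above 7 per the labels) gave 8 columns of log2 intensity, which the authors made with RMA and deposited, per the submitters' processing notes; the version, and whether the 8 arrays were normalised together, are not given in the sources used here. That they are log2 follows from their range. All 22206 transcript clusters were used with no filter on dim ones: 19572 carry 1 symbol in the platform annotation, 2634 none and 0 several, and all 19572 matched the RefSeq table of GRCm38.p6 by gene ID.

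A mean per group was fitted in limma 3.58.1 (R 4.3.3; default empirical Bayes prior, 4 residual degrees of freedom). Contrasts were clothianidin minus vehicle at 3 and at 10 weeks, the 10-week minus the 3-week difference, and 10 minus 3 weeks over both exposures. Tests were two-sided with Benjamini-Hochberg adjustment over all clusters and a threshold of 0.05. The code of the model was checked on simulated data with independent normal noise and shifts of known size. Those data held no tissue differences between arrays, so the check does not bear on how the tests perform on these arrays. Members at 3 weeks and in the difference between the differences, and Cd36 between the ages, have no test, since the 3-week contrast chose Cd36. Lists are described by counts and medians.

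The members, gene lists, marker lists and the grouping by Ttr were chosen with earlier results of these data known. Named list genes were up to 4 past the threshold per list and direction or, where none passed, up to 2 with the largest difference among those whose groups did not overlap, and some of these are given only as counts; likeness to Cd36 named the 5 highest and 3 lowest correlations. Alternatives were other priors, the arrays of 1 age only, the replicate number as a block, a filter at the median level, quantile normalisation, centring, array weights, an adjusted p under 0.1, no Ttr-high arrays, and leaving out each array. Precision is limited by the 2 arrays per group.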

Additional observations from a re-analysis of the deposited data

Results flagged for a closer look

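Among the 151 measured fatty acid genes, 6 (3.97%) had both clothianidin arrays on one side of both vehicle arrays at 3 weeks and on the other side at 10 weeks. Of all 22206 clusters 850 (3.83%) did so, a share close to that of the fatty acid genes. The difference between the exposure differences (10 minus 3 weeks) had a limma adjusted p of 0.998 for each of the 6. They were picked on this same pattern, and 0% of all clusters passed that test, so it decides nothing about them. For Fabp9 the difference between the exposure differences was 1.54 (-0.96 at 3 weeks and 0.58 at 10 weeks). For Scara5, a scavenger receptor gene, it was 0.96 (-0.83 and 0.13), and both genes read below 4 in all arrays. For Lipg it was -1.20 (0.83 and -0.37), for Elovl1 -0.69 (0.57 and -0.13), for Vnn1, a pantetheinase gene, -0.46 (0.32 and -0.14, dim in all arrays) and for Acly, which makes cytosolic acetyl-CoA, 0.45 (-0.23 and 0.22). None of the 8 members showed this pattern.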

How the results depend on the processing

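No member passed the exposure test at 10 weeks under any alternative run, and the counts of clusters past the threshold stayed at 0 in both exposure comparisons and in the difference between them, except that leaving out 1 array gave 0 to 1 at 10 weeks and 0 to 1 for the difference. The age count of 2490 was 1143 when clusters dimmer than the median level were left out, 4389 at an adjusted p under 0.1, 0 without the 3 Ttr-high arrays and 628 to 2550 with 1 array left out. The replicate numbers share only a label, with deviations correlated from -0.267 to 0.138 between groups; with the replicate block the age count was 1803 and the 3 counts that involve exposure stayed at 0. Signs of small member differences turned: Fabp3 at 10 weeks was -0.035 after quantile normalisation, -0.26 without the Ttr-high arrays and -0.26 to 0.37 with 1 array left out, Fabp5 at 10 weeks -0.205 to 0.055, and Fabp7 at 10 weeks -0.765 to 0.485. Between the ages, Cpt1a was 0.0275 and Ppara -0.175 without the Ttr-high arrays, and with 1 array left out Cpt1a ran from -0.245 to 0.07, Ppara from -0.0775 to 0.6825 and Fabp3 from -0.2775 to 0.0375. The causes were not tested.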
